A study of Mus musculus with 6 samples.

Results

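ATP-binding cassette (ABC) transporter genes were examined in 6 primary mouse lung tumour lines, 3 labelled SMC and 3 labelled non-SMC. A gene was a member if its symbol was Abc, a subfamily letter from a to g, a number and at most a closing a or b. The array files give each probe a transcript accession but no gene symbol, so symbols were found by matching accessions to a RefSeq gene table. The pattern matched 87 of 41174 probes, which stand for 49 of the 18749 genes named on the array and for 49 of the 50 mouse genes of this pattern in the table. The gene without a probe was Abca16, and a probe whose accession is not in the table could not become a member.

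The SMC and the non-SMC lines came from small cell lung carcinomas of C57BL/6J mice with floxed alleles of Rb1 and Trp53 (Rb1L/L, Trp53L/L), and all 6 were grown in RPMI 1640 medium with fetal bovine serum. The labels do not spell out SMC, name no Cre driver and do not say whether a line is clonal. They sort the lines into 3 pairs of 1 SMC and 1 non-SMC line each. Replicates 1 and 3 of both groups are labelled female and replicate 2 of both groups male. Total RNA of each line was hybridised to 1 Agilent array with the dye Cy3.

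ABC proteins use ATP, bound by a conserved nucleotide-binding domain, to move substrates across membranes. Subfamily A exports lipids, subfamily B holds P-glycoprotein together with mitochondrial and lysosomal transporters, and subfamily C holds the multidrug resistance proteins and the sulfonylurea receptors of potassium channels. Subfamily D works in peroxisomes and lysosomes, subfamilies E and F have no membrane span and act on ribosomes, and subfamily G exports sterols and drugs. Small cell lung carcinoma is treated with chemotherapy, and some of its drugs, such as etoposide, are substrates of efflux pumps.

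An array detected 26393 to 28210 probes well above background, among them 47 to 53 of the 87 ABC probes. All 10 neuroendocrine markers were detected in every SMC line, with summed levels of 228 to 333, against 18.2 to 99.6 in the non-SMC lines, where Insm1 and Scg2 were not detected in replicate 1. These sums are intensities relative to the 75th percentile of the array. The 10 mesenchymal markers summed to 0.59 to 1.86 in SMC lines, with Axl, Col1a1 and Col3a1 detected in none of them, and to 539 to 1120 in non-SMC lines, which expressed all 10. Of 10 leukocyte markers 5 to 8 were detected in an SMC line (sum 0.179 to 1.41), against 5 to 10 in a non-SMC line (sum 1.92 to 15), the most in non-SMC replicate 3. The 6 endothelial markers summed to 0.047 to 0.0712 in SMC and 0.0518 to 0.0728 in non-SMC lines. Of these, Pecam1, Cdh5, Cldn5 and Emcn were detected on no array. Kdr was detected in SMC replicates 2 and 3 and in every non-SMC line, and Tek in SMC replicates 1 and 3 alone. Of 9 epithelial and alveolar markers, 8 were detected in each SMC line (sum 15.8 to 350) and 6 to 8 in a non-SMC line (sum 1.55 to 434); Epcam and Cdh1 were not detected in non-SMC replicate 1. A slide held both SMC replicates 1 and 2 together with non-SMC replicates 2 and 3, while SMC replicate 3 and non-SMC replicate 1 each lay on a slide of their own, so only pair 2 compares lines within a slide.

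All levels below are log2 signals minus the 75th percentile of their array, differences are SMC minus non-SMC on that log2 scale, and SE is limma's moderated standard error, which draws on the spread of all features and is not that of the 3 pair differences alone. Levels of different probes cannot be set against each other. In RNA of whole cultures, fewer cells of a type and less RNA per cell cannot be told apart. A gene was tested if at least 1 probe was detected, that is, lay well above background, on every array of the SMC or of the non-SMC lines, and the test was limma with pair and group, two-sided, with p-values adjusted by Benjamini-Hochberg over all 19855 features. Of the 49 ABC genes, 30 were tested, and 25 of those were detected on all 6 arrays. Of the 19 others, 15 were detected on no array.

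One ABC gene passed the test. Abcb1b, which encodes one of the 2 drug-transporting P-glycoproteins of the mouse, was lower in the SMC lines, and no ABC gene was higher. Across all features tested, 3.03% were lower and 0.156% higher by the same rule, so 1 of 30 lower genes (3.33%) lies near the background. At an unadjusted p under 0.05, 7 ABC genes were lower (23.3%, against 11.8% of all features) and 2 higher (6.67%, against 14.9%). The median difference was -0.17 over the 30 genes and 0.18 over all features, while 17 of the 30 (56.7%) differed by more than 1 in either direction, against 35.3% of all features. Groups did not overlap for 7 lower genes (23.3%, background 15.4%) and 3 higher genes (10%, background 22.8%). Since a gene detected in 1 group alone passes the filter through its higher group, these counts are a description.

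**Figure D1:**
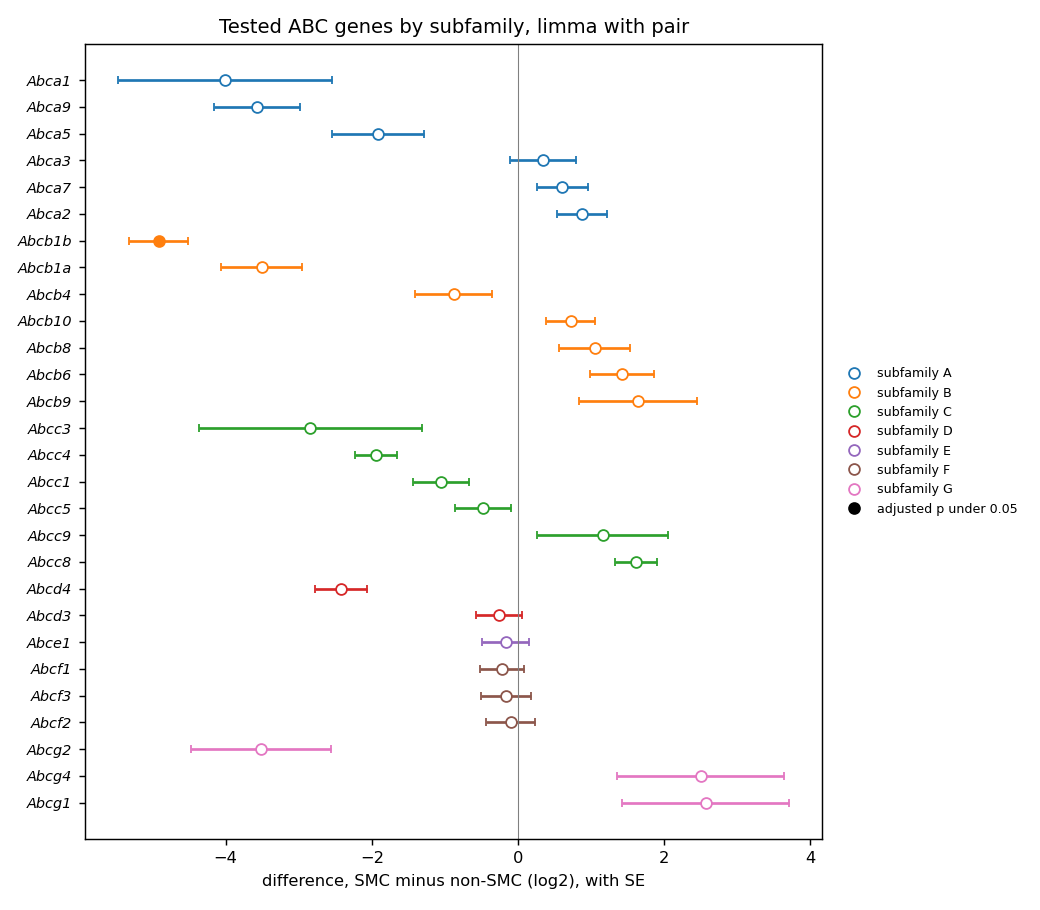
Difference between the SMC and non-SMC lines (x axis, log2, bars are limma's moderated SE, 3 pairs) for the tested ABC genes whose values are reported, coloured by subfamily. The filled point is Abcb1b, at -4.92, the one gene with an adjusted p under 0.05; the subfamily E and F genes lie between -0.22 and -0.10.

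The P-glycoprotein genes come first among the drug efflux pumps. Abcb1b measured -3.41, -3.20 and -2.66 in SMC replicates 1 to 3, against 1.78, 2.29 and 1.42 in the non-SMC lines. Every SMC line lay below every non-SMC line, and the pair differences were -5.18, -5.49 and -4.08. The mean was -3.09 ± 0.39 in SMC and 1.83 ± 0.43 in non-SMC lines (SD, n = 3). The SMC lines were 30.2-fold lower, at -4.92 ± 0.41 (moderated SE, adjusted p = 0.02 by limma). With normexp background correction the difference was smaller, at -3.94 (limma adjusted p = 0.0132). On the shared slide alone it was -5.16 (limma adjusted p = 0.0212), without the pair in the fit and without SMC replicate 3 and non-SMC replicate 1. The call was lost without pair 1 (-4.79, limma adjusted p = 0.0914) and without pair 3 (-5.33, limma adjusted p = 0.0711). In the same fit 8 of 10 mesenchymal and 1 of 5 tested leukocyte markers were lower, against 3.03% of all features. Of the neuroendocrine markers 0 of 10 passed, and 9 had a positive difference at an unadjusted p under 0.05 (14.9% of all features). Kdr, the 1 tested endothelial marker, differed by -1.79 and did not pass (limma adjusted p = 0.185). The summed levels of these markers are given above, and their part in the Abcb1b result was not tested.

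Other Abcb1b probes gave smaller differences of the same sign. One measured -3.38, -3.65 and -2.48 in SMC lines and -0.59, 0.02 and -0.55 in non-SMC lines, a difference of -2.80. The third was detected on 1 SMC array and differed by -3.55. With every probe as a feature of its own, limma gave adjusted p = 0.0649 for the first of these and 0.0447 for the second.

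Abcb1a encodes the other drug-transporting P-glycoprotein, the form of the mouse blood-brain barrier. Its probe was well above background on no SMC array, with signals of -7.14, -8.38 and -7.91, and on all non-SMC arrays, with -4.90, -3.86 and -4.14. It was 9.93-fold lower in SMC lines when SMC signals below the floor of their array were raised to it. The floor is the array's lowest signal among probes well above background. It is no detection limit, since probes not well above background could exceed it. In SMC replicate 2, Abca1 lay at -6.91 and the floor at -7.88. The fold is therefore no lower bound, and it applies to the scanner's background-subtracted signal. With normexp background correction the difference was smaller, at -0.54 (limma adjusted p = 0.202). Its measured difference of -3.51 ± 0.55 did not pass with the pair in the fit (limma adjusted p = 0.0661), and it passed without the pair (limma adjusted p = 0.0117). Without the pair, 4 ABC genes were lower and none higher, against 4.91% and 1.37% of all features.

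Abcb4, the phosphatidylcholine floppase of bile, stands next to Abcb1b on chromosome 5, with no protein-coding gene between Abcb1a, Abcb1b and Abcb4 in the RefSeq table. Its brightest probe measured 0.64, -0.08 and 1.37 in SMC lines and 1.24, 2.05 and 1.29 in non-SMC lines, overlapping groups with a difference of -0.88 ± 0.53 (limma adjusted p = 0.353). A dimmer Abcb4 probe went the other way. It measured -3.59, -4.57 and -3.08 in SMC lines and -8.69, -7.37 and -8.08 in non-SMC lines, where it was well above background on no array. With non-SMC signals below the floor raised to it, this probe was 12-fold higher in SMC lines, which is no lower bound. Its measured difference was 4.30 (limma adjusted p = 0.0492 with every probe a feature). This probe was not fitted with normexp background correction. No direction is therefore given for Abcb4 as a gene. The probe sequences were not used, so hybridisation to neighbouring paralogs or to other transcripts was not examined.

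**Figure D2:**
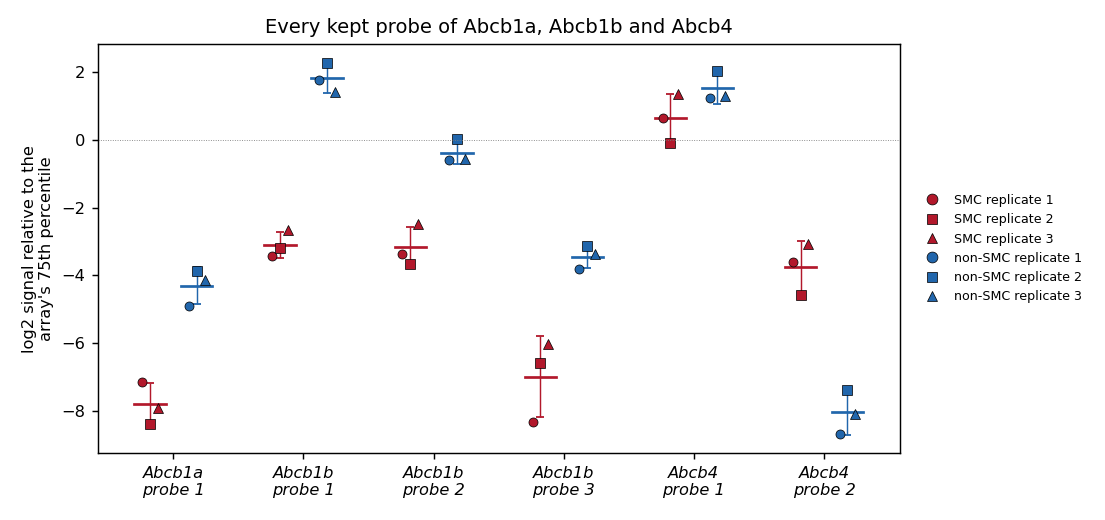
Signals of every kept probe of Abcb1a, Abcb1b and Abcb4 (y axis, log2 relative to the array's 75th percentile), with SMC lines in red to the left and non-SMC lines in blue; bars are the mean and SD of 3 lines. All Abcb1a and Abcb1b probes lie lower in SMC lines, while the Abcb4 probes differ in sign (-0.88 and 4.30); heights of different probes are not comparable.

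The RefSeq windows from 250 bases before to 50 after the start of these neighbouring genes (build GRCm38.p6, plus strand, chr5:8797897-8798196, chr5:8566841-8567140 and chr5:8893471-8893770) are shown because the genes adjoin yet their probes differed in direction. Capitals mark matches on either strand to the GC box, GGGCGG, or to the letters CCAAT.
Abcb1b: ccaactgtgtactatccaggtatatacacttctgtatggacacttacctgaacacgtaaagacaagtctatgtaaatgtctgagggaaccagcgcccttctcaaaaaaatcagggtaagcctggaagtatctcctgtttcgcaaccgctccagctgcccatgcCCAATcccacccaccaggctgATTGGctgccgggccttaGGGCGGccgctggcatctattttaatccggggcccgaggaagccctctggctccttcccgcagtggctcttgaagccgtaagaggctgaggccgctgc
Abcb1a: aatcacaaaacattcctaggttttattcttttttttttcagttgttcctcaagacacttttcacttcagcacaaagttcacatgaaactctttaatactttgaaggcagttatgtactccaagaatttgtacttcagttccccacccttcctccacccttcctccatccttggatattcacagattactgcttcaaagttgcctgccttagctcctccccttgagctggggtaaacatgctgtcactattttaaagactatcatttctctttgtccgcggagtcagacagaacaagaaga
Abcb4: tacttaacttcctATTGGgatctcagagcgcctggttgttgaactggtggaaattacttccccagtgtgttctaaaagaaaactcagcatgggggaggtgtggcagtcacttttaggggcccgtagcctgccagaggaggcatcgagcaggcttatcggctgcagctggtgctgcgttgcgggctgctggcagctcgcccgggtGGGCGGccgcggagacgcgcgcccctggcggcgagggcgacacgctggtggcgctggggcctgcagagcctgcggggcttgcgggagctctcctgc
The Abcb1b window held 1 GC box and 2 CCAAT matches, the Abcb4 window 1 of each, and the Abcb1a window neither. None held the TATA box searched as TATAAA. The AP-1 site searched as TGANTCA and the E-box searched as CACGTG were also absent from these windows on both strands. Of 32851 mouse windows of this length, 35.7% held GGGCGG, 37.4% CCAAT, 13.6% TATAAA, 7.8% TGANTCA and 7.2% CACGTG. The base composition was 55.0% G and C for Abcb1b, 40.3% for Abcb1a and 64.0% for Abcb4, against a median of 52.7%. The matches within a window did not overlap, and they describe the windows only.

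Abcc4 (MRP4), an exporter of cyclic nucleotides and nucleotide analogues, measured -0.63, -0.05 and -0.40 in SMC lines and 1.41, 2.03 and 1.30 in non-SMC lines. The groups did not overlap, and the pair differences were close together at -2.04, -2.07 and -1.71. The difference of -1.94 ± 0.29 did not pass with the pair (limma adjusted p = 0.0603) and passed without it (limma adjusted p = 0.0255); a dimmer probe differed by -2.08. Abcc1 (MRP1), which exports glutathione conjugates and anthracyclines, measured 1.24, 1.26 and 1.51 in SMC lines and 2.73, 1.56 and 2.86 in non-SMC lines. Its groups did not overlap by a narrow margin, non-SMC replicate 2 lying close to the SMC lines, and the difference was -1.05 ± 0.38 (limma adjusted p = 0.188), with -1.37 and -1.35 at its other probes.

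Abcg2 (BCRP), the pump that marks side-population cells, measured -2.45, -1.59 and -3.38 in SMC lines and 2.28, -0.67 and 1.54 in non-SMC lines. Non-SMC replicate 2 again lay nearest the SMC lines. The pair differences were -4.73, -0.91 and -4.93, with a combined -3.52 ± 0.96 (limma adjusted p = 0.135), and the other probe gave -3.22. Without pair 2 the difference was -4.83 (limma adjusted p = 0.0332), and without the block and non-SMC replicate 2 it was -4.38 (limma adjusted p = 0.0156). Of 21 alternatives Abcg2 passed in these 2 alone, and both leave out the non-SMC line nearest the SMC lines. The highest limma adjusted p among the alternatives was 0.404, without pair 3.

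Abcc3 (MRP3), a transporter of organic anions and glucuronides, measured -3.26, -3.47 and -4.96 in SMC lines and -4.59, 0.56 and 0.85 in non-SMC lines. Here non-SMC replicate 1 lay among the SMC lines, so the groups overlapped. The difference was -2.84 ± 1.53 (limma adjusted p = 0.308). On the shared slide, without the pair and leaving out that line and SMC replicate 3, the difference was -4.07 (limma adjusted p = 0.0171). Abcc3 passed in 2 of 21 alternatives, both of which leave out non-SMC replicate 1. The highest limma adjusted p among the alternatives was 0.717, without pair 3. A second Abcc3 probe, not kept and detected on 2 non-SMC arrays alone, differed by -2.54. Abcc5 (MRP5), a cyclic nucleotide exporter, measured 2.01, 0.70 and 1.70 in SMC lines and 2.19, 1.93 and 1.74 in non-SMC lines, with a difference of -0.48 ± 0.38 (limma adjusted p = 0.459) and a 95% interval of -1.54 to 0.57. Its other probes differed more, by -0.81 and -1.13 (limma adjusted p = 0.183 and 0.243 with every probe a feature). At the first of these the groups did not overlap, by a narrow margin.

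Of the 10 drug efflux genes listed, 7 were tested, with 1 lower, none higher and 6 not past the test. Over all features, 3.03% were lower by this test. All 7 measured differences were negative, as were 41.7% of those of all features, with a median of -2.84 against 0.18. In 5 of them the groups did not overlap (15.4% of all features were lower without overlap), and 1 of these, Abcb1a, passed the filter through the non-SMC lines alone. The 3 untested genes were Abcc2 and Abcc6, detected on no array, and Abcc10, detected on 1 SMC array.

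**Figure D3:**
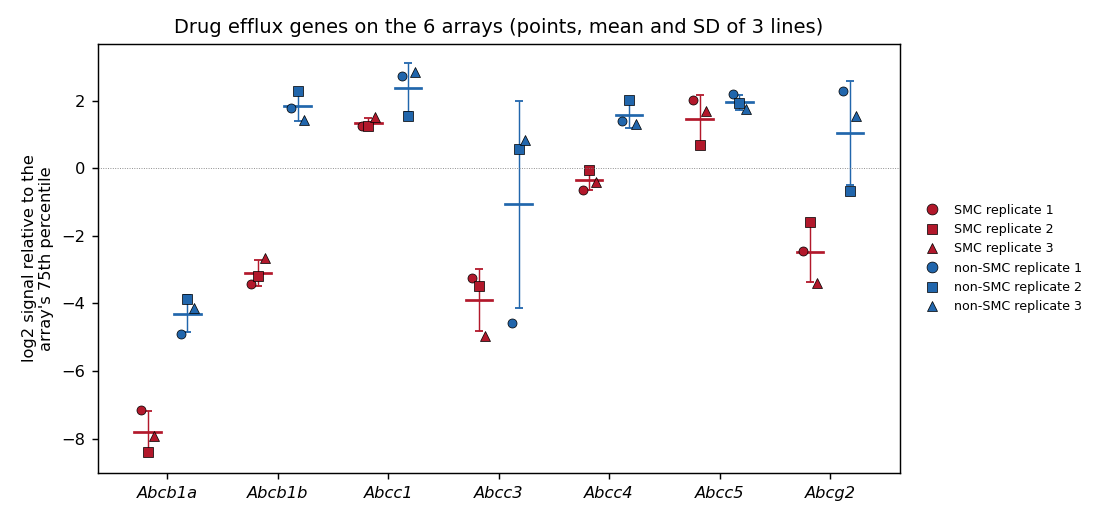
Signals of the 7 tested drug efflux genes (y axis, log2 relative to the array's 75th percentile) in SMC lines (red, left) and non-SMC lines (blue, right); bars are the mean and SD of 3 lines. The groups do not overlap for Abcb1a, Abcb1b, Abcc1, Abcc4 and Abcg2. Non-SMC replicate 1 for Abcc3 and non-SMC replicate 2 for Abcg2 lie nearer the SMC lines than the other non-SMC lines do.

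Several other subfamily B members work inside the cell. Abcb6, a porphyrin transporter, measured 1.53, 1.63 and 1.85 in SMC lines and 0.75, 0.51 and -0.51 in non-SMC lines, a difference of 1.42 ± 0.44 (limma adjusted p = 0.155) with groups that did not overlap. The mitochondrial transporters Abcb8 and Abcb10 differed by 1.05 ± 0.49 and 0.72 ± 0.34, and Abcb9, the lysosomal peptide transporter, by 1.64 ± 0.81, of which pair 1 gave 3.82 (limma adjusted p = 0.257, 0.261 and 0.278). Abcb11, the bile salt export pump of the hepatocyte's plasma membrane, and Abcb5 were detected on no array. In subfamily B as a whole, 1 of 8 tested genes was lower (3.03% of all features) and 7 did not pass, with a median of 0.33 (0.18 over all features).

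None of the 6 tested subfamily A genes passed, and their median was -0.79. Abca1, which loads cholesterol onto apolipoprotein A-I, measured -1.98, -6.91 and -5.71 in SMC lines, the second not well above background, and -2.01, -0.27 and -0.30 in non-SMC lines. The lines of pair 1 had nearly the same level, and the pair differences were 0.02, -6.64 and -5.41 (-4.01 ± 1.46, limma adjusted p = 0.189). Without the block and without SMC replicate 1 it was -5.45 (limma adjusted p = 0.0315). Of 20 alternatives Abca1 passed in this 1 alone, which leaves out the SMC line nearest the non-SMC lines. The highest limma adjusted p among the alternatives was 0.49, without pair 3. Abca9, a gene of the lipid transporter cluster on chromosome 11, was detected on no SMC array, at -8.70, -7.61 and -8.09, and on every non-SMC array, at -3.73, -5.20 and -4.74. These are the signals of 1 of 3 Abca9 probes, and the other 2 were detected on no array. By that probe it was 7.79-fold lower in SMC lines with SMC signals below the floor raised to it, which is no lower bound. With normexp background correction the difference was smaller, at -0.58 (limma adjusted p = 0.259). The measured -3.57 ± 0.59 did not pass with the pair (limma adjusted p = 0.0743) and passed without it (limma adjusted p = 0.0149).

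Its cluster neighbour Abca5, a lysosomal transporter, measured -0.88, -4.73 and -2.67 in SMC lines and -0.41, -1.45 and -0.67 in non-SMC lines, so that SMC replicate 1 lay within the non-SMC range. It differed by -1.92 ± 0.63 (limma adjusted p = 0.167), and by -2.95 to -2.27 at its 3 other probes. Abca6 and Abca8a, also of this cluster, were detected on no array, and each of 2 Abca8b probes was detected on 1 non-SMC array. Abca7, a phospholipid exporter, measured 3.67, 3.26 and 4.03 in SMC lines and 2.52, 3.20 and 3.41 in non-SMC lines, a difference of 0.61 ± 0.35 (limma adjusted p = 0.334). Abca2, a lysosomal transporter abundant in brain, differed by 0.88 ± 0.34 with groups that did not overlap, and Abca3, the lipid pump of alveolar type II cell lamellar bodies, by 0.34 ± 0.45 (limma adjusted p = 0.199 and 0.662). Other Abca3 probes differed by 0.68 and 1.34 (limma adjusted p = 0.419 and 0.114 with every probe a feature). The latter was detected on every SMC array and on no non-SMC array, so it passed the filter through the SMC lines alone. Abca4, Abca12, Abca13, Abca14, Abca15 and Abca17 were detected on no array.

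Abcc8 and Abcc9 encode the sulfonylurea receptors that form ATP-sensitive potassium channels with the pore proteins of Kcnj11 and Kcnj8. Abcc8 measured -4.63, -0.28 and -4.39 in SMC lines and -6.01, -1.97 and -6.19 in non-SMC lines, where replicate 3 was not well above background. Both lines of pair 2 were far above the other pairs, and the SMC line was higher in 3 of 3 pairs, by 1.38, 1.69 and 1.80. The difference of 1.62 ± 0.29 did not pass (limma adjusted p = 0.0852 with the pair, 0.538 without). These are the signals of 1 of 2 Abcc8 probes. The other was detected on no array, at -8.46 in both lines of pair 2, with a difference of 0.03. Abcc9 measured -5.27, -5.63 and -5.85 in SMC lines and -8.74, -6.31 and -5.18 in non-SMC lines, of which replicate 3 alone was well above background, and differed by 1.16 ± 0.90 (limma adjusted p = 0.451). Other Abcc9 probes, not kept, differed by 1.03 and 0.35, the first detected on 2 SMC arrays alone and the second on no array. Neither pore gene reached the detection needed for a test. Subfamily C had 6 tested genes, none past the test, with a median of -0.77; Abcc12 was detected on no array.

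Subfamily D imports fatty acids into peroxisomes, except for Abcd4, which acts in lysosomal release of vitamin B12. Abcd4 measured -2.04, -1.61 and -0.51 in SMC lines and 0.97, 0.24 and 1.90 in non-SMC lines, without overlap. Its difference of -2.42 ± 0.36 did not pass (limma adjusted p = 0.061). Abcd3, the abundant peroxisomal membrane protein PMP70, differed by -0.26 ± 0.31, and Abcd2 was not tested, its better detected probe being well above background on 1 SMC and 1 non-SMC array.

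The ribosome-associated members differed little between the groups. Abce1, the ribosome recycling factor, measured 3.83, 3.78 and 3.59 in SMC lines and between 3.47 and 4.25 in non-SMC lines, a difference of -0.17 ± 0.32 with a 95% interval of -1.07 to 0.72. Abcf1, a partner of initiation factor eIF2, measured 3.80, 3.88 and 3.93 in SMC lines and 4.21, 3.78 and 4.28 in non-SMC lines (-0.22 ± 0.30, interval -1.04 to 0.60). Abcf3 measured -0.20, -0.03 and 0.11 in SMC lines and 0.52, -0.32 and 0.16 in non-SMC lines (-0.16 ± 0.34), and Abcf2 differed by -0.10 ± 0.34. At the probes that stand for these 4 genes the groups overlapped, and limma adjusted p ranged from 0.663 to 0.871. The second probes of Abce1 and Abcf3 differed by -0.65 and 0.26 without overlap, the latter by a narrow margin. Those of Abcf1 and Abcf2 differed by -0.09 and 0.01. With every probe a feature, limma adjusted p of these second probes ranged from 0.231 to 0.994.

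In subfamily G, Abcg1 and Abcg4, which pass cholesterol to high-density lipoprotein, had positive differences beside the negative one of Abcg2. Abcg1 measured 2.59, 1.67 and 0.49 in SMC lines and -3.08, 1.14 and -1.02 in non-SMC lines. The SMC line was higher in each pair, by 5.67, 0.53 and 1.51, yet the groups overlapped and the difference of 2.57 ± 1.14 did not pass (limma adjusted p = 0.241). Abcg4 measured -3.40, -1.88 and 0.36 in SMC lines and -5.17, -2.08 and -5.17 in non-SMC lines, with pair differences of 1.77, 0.20 and 5.53 (2.50 ± 1.14, limma adjusted p = 0.251). The intestinal sterol exporter subunits Abcg5 and Abcg8 were not tested, Abcg8 being detected on 1 non-SMC array and Abcg5 nowhere; Abcg3 was not detected either. Of 7 listed sterol and phospholipid exporters, 5 were tested and none passed, with a median of 0.61.

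**Figure D4:**
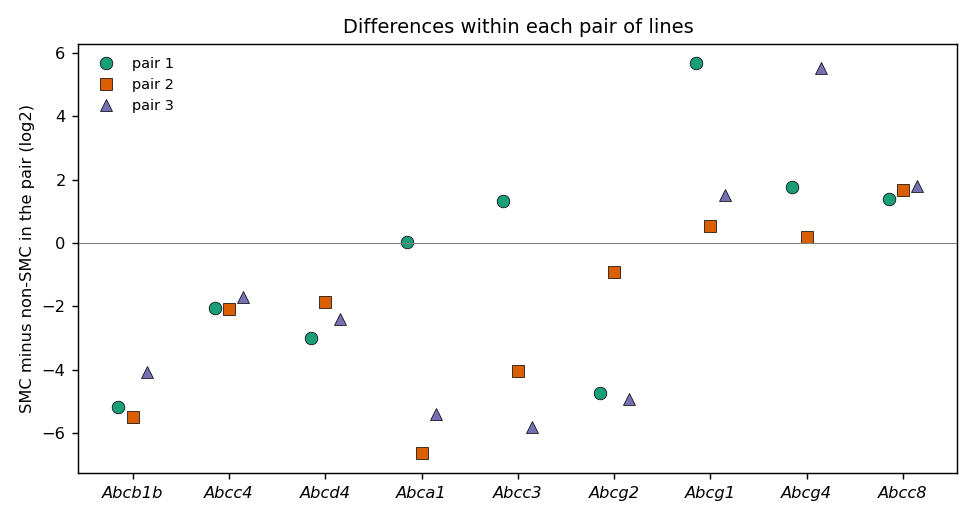
Difference within each pair of lines (y axis, SMC minus non-SMC, log2) for 9 ABC genes, with 1 point per pair. Abcb1b, Abcc4, Abcd4 and Abcc8 keep close values in all 3 pairs, while pair 1 stands apart for Abca1 and Abcc3, pair 2 for Abcg2, pair 1 for Abcg1 and pair 3 for Abcg4.

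Counts by pair were as follows. Differences above 1 in size were positive for 11 and negative for 7 of the 30 genes in pair 1, positive for 3 and negative for 10 in pair 2, and positive for 4 and negative for 10 in pair 3. The matching shares of all features were not computed by pair, so these counts lack a background and describe the members only. The median over the members was -0.12, 0.07 and -0.23 in pairs 1 to 3, against 0.06, 0.18 and 0.25 over all features.

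Genes that act with the transporters were read from lists of partners. Of 8 regulators and associates of drug efflux, 6 were tested and 1 was lower (3.03% of all features were), Mvp, the major vault protein. It measured -4.56, -5.55 and -2.54 in SMC lines and -0.91, -0.70 and 0.26 in non-SMC lines, a difference of -3.77 ± 0.50 (limma adjusted p = 0.049) that was lost in several alternatives, without the pair among them (limma adjusted p = 0.0529). The 5 others did not pass. None of 12 sterol pathway genes, 7 peroxisome genes, 8 mitochondrial iron and heme genes and 6 ribosome recycling and GCN2 genes passed. Their medians were -0.28, -0.16, -0.14 and -0.29, in that order, against 0.18 over all features. The ABC genes Tap1 and Tap2, peptide transporters outside the symbol pattern, differed by -3.80 ± 1.02 and -3.09 ± 0.57 (limma adjusted p = 0.134 and 0.0908), and Cftr was not tested; the values of this pair are named although neither passed.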

How the data were processed

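Per the file headers, scans of 6 one-colour Agilent arrays (design 014868, header build mm9) were quantified with Feature Extraction 10.7.3.1; the submitters' processing notes give 10.7. The deposited intensity used was the processed signal, background-subtracted within the array per the file headers and not normalized between arrays. The deposited series table holds log2 values with equal quantiles in all columns; how it was made is not given in the sources used here.

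The 1639 control spots were dropped, as were spots flagged as outliers, the spots of a probe averaged, and log2 of the signal scaled by subtracting each array's 75th percentile (485 to 696 intensity units). Probes lacking a usable spot on an array (50) were not tested. Accessions, without versions, were matched to RefSeq transcripts and Ensembl identifiers of GRCm38.p6, naming 27479 of 41174 probes. The kept probe brightest over all arrays stood for a gene, and unnamed probes stood alone. Kept probes disagreed in sign for 4 of the 16 genes with several, Abcb4, Abcf2 and Abcf3 among them. Some member genes are counted but their own values are not reported here. No member spot was saturated.

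The fit was limma 3.58.1 in R 4.3.3 (2 residual and 2.07 prior degrees of freedom, threshold 0.05), tested on simulated data. The number of arrays limits the precision, and p-values rest on the spread between 3 pairs, moderated by that of all features. The pairing comes from the labels; deviations from group means correlated at -0.01, 0.14 and 0.00 within pairs 1 to 3. The planned rule named a gene symbol column that the array files do not hold, so RefSeq symbols took its place, and protein sequences were not used. Normexp (offset 50) used the median spot signal.

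The members and lists were chosen with earlier results of these data known. Values on all arrays were planned for genes past the test, the drug efflux, sulfonylurea receptor and sterol lists and the 2 largest differences per subfamily; the values of Abca5 and Abcb6 and the other Abcb4 and Abcb1b probes were chosen after they were seen. Alternatives were quantile and median scaling, normexp, the deposited values, other filters, probe means, single probes, no pair, the slide, and leaving out lines. The fit on the shared slide alone was run without the pair.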

Additional observations from a re-analysis of the deposited data

How the results depend on the processing

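Abcb1b was lower in SMC lines in all 21 alternatives (-5.39 to -3.75) and passed in 19, the exceptions being the fits without pair 1 and without pair 3. The number of lower ABC genes was 1 in the paired fit. With the share of all features lower in brackets, it was 3 with median scaling (Abca9, Abcb1a and Abcb1b, 4.9%) and with normexp (Abcb1b, Abcc4 and Abcd4, 2.96%), 2 with the deposited values (Abcb1a and Abcb1b, 2.8%), with dim signals at the floor (Abca9 and Abcb1b, 2.85%) and on the shared slide (Abcb1b and Abcc3, 3.08%), and 4 with no replicate block (4.91%). Leaving out a pair gave 0 to 2 (0% to 2.5%), with 8 and 5 at an unadjusted p under 0.05 without pairs 1 and 3, where limma called 0. Leaving out single lines without the block gave 1 to 7 (2.18% to 5.77%). The 7 were without non-SMC replicate 2 (5.77%), with Abcc1, Abcc4, Abcd4 and Abcg2 among them, and the 1 was without non-SMC replicate 3 (2.18%). The other single-line fits gave 3 or 4 (2.66% to 3.77%). No gene was higher by limma in any of these fits, with 1 to 5 at an unadjusted p under 0.05 (2 in the paired fit), except Abcb4 with every probe a feature (1). Normexp gave smaller differences for, among others, Abcb1b (-3.94), Abca1 (-1.86), Abcc3 (-1.98), Abcc8 (0.67), Abcc9 (0.08), Abcg2 (-2.96), Abcg4 (1.36) and Mvp (-2.24). The median over the tested genes was 0.03 with no filter, 0.00 with the mean of a gene's probes, and -0.32 to -0.08 without a pair or -0.38 to -0.08 without single lines. Sign changes were found for Abcb4 (1.71) and Abcf3 (0.05) with probe means, Abce1 (0.07) on the shared slide, and Abcf3 without pair 1 (0.12) or non-SMC replicate 1 (0.04). Mvp passed in 8 of 21 alternatives. The causes were not tested. The 15 ABC genes detected on no array have only an upper bound set by background.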

Other observations

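The transcription factor gene Neurod1, chosen after its values were seen, was well above background only in the lines of pair 2, at -1.67 in the SMC and -3.63 in the non-SMC line, the pair with the highest Abcc8 signals in both groups (-0.28 and -1.97). These Abcc8 signals come from 1 of its 2 probes, the other being detected on no array. No relation between Neurod1 and Abcc8 was tested.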
